A study of Homo sapiens with 18 samples.

Results

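The 10 genes described here encode the core proteins of secreted proteoglycans and of close relatives of these: DCN, LUM, BGN, PODN, VCAN, HSPG2, SPOCK1, SPOCK2, SRGN and ESM1. They were taken by name from the 58288 genes of the count files, with earlier results of these data known. All 10 were among the 22023 genes that passed the filter on low counts. DCN and LUM passed it through their 3D libraries alone. A proteoglycan is a protein onto which long, sulfated sugar chains, the glycosaminoglycans, are built in the Golgi. Decorin, lumican, biglycan and podocan are small leucine-rich proteins of the collagenous matrix, versican belongs to the hyaluronan-rich provisional matrix, and perlecan is a large heparan sulfate proteoglycan of basement membranes. In the omentum, the peritoneal fat fold on which ovarian cancer often settles, fibroblasts and mesothelial cells lay down much of this matrix.

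Kuramochi, OVCAR4 and OVCAR8 are human high-grade serous ovarian cancer lines, used here at passages 35 to 45, 45 to 55 and 30 to 40. In the 3D group, GFP-labelled cells of a line were kept for 48 h on an organotypic omentum culture, in which a layer of primary human mesothelial cells covers primary omental fibroblasts embedded in collagen I, and were then recovered by fluorescence-activated sorting. In the plastic group the same line grew on a culture dish and was sham sorted. Each of the 6 groups held 3 libraries from independent experiments, 18 in all, named below by the replicate numbers of the labels.

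The libraries held 28415048 to 43142540 counts. Of the 18 pairs of libraries within a group, OVCAR4 3D 4 and 6, OVCAR8 3D 61 and 62 and OVCAR8 plastic 4 and 62 were the closest, with a chi-square per degree of freedom of 1.98, 2.75 and 3.12 against 9.43 to 114 for the rest. All were above sampling noise and were kept as separate samples. This does not show that the closest pairs came from separate experiments. The summed level of 8 epithelial and ovarian cancer markers was 3036 to 6791 CPM in every library (CPM is the count as a share of the library total after TMM scaling). Of 8 fibroblast markers outside the matrix genes, 5 in Kuramochi, 6 in OVCAR4 and 5 in OVCAR8 rose in 3D, beside 14.4%, 15.2% and 7.51% of all genes tested. Of 7 mesothelial markers tested out of 8, 3, 5 and 2 rose and 2, 0 and 0 fell. Of all genes tested 12.8%, 11.9% and 3.32% fell. The lines themselves expressed some of these markers on plastic, MSLN at 164 to 264 CPM in Kuramochi and UPK3B at 98.5 to 164 CPM in OVCAR4. The counts are therefore not specific to mesothelial cells. The 4 adipocyte markers summed to at most 0.207 CPM in any library. FAP, a fibroblast surface protease, had 2, 1 and 0 counts in all on plastic and 349, 330 and 433 in 3D. Like DCN and LUM it passed the filter through its 3D libraries alone, so its rise in these counts of markers was favoured. The markers that did not pass were THY1, TWIST2 and TCF21 in Kuramochi, PRRX1 and TWIST2 in OVCAR4, and PDGFRB, TWIST2 and TCF21 in OVCAR8, with log2 fold changes below 0 for THY1 (-0.45) and TWIST2 (-0.26) in Kuramochi and PDGFRB (-0.14) in OVCAR8.

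On plastic, before contact with omental cells, the levels of these genes differed between the lines, as did those of most genes tested. Kuramochi differed from OVCAR4 in 7 of the 10 genes, 5 of them higher and 2 lower in Kuramochi, beside 61.7% of all genes tested (31.6% higher, 30.1% lower; edgeR's quasi-likelihood test, adjusted p under 0.05). OVCAR8 differed from OVCAR4 in 7, 4 higher and 3 lower, beside 68.9% of all genes (33.6% higher, 35.3% lower). OVCAR8 differed from Kuramochi in 8, 5 higher and 3 lower, beside 67.7% (32.2% higher, 35.5% lower). These counts lay near the background. Per kb of exon, HSPG2 had the highest level of the 10 in Kuramochi, at 30.1 CPM per kb, and in OVCAR4, at 16.5. In OVCAR8 the order began with SRGN at 34.4 CPM per kb and BGN at 11.3, and HSPG2 came next at 6.54.

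**Figure D1:**
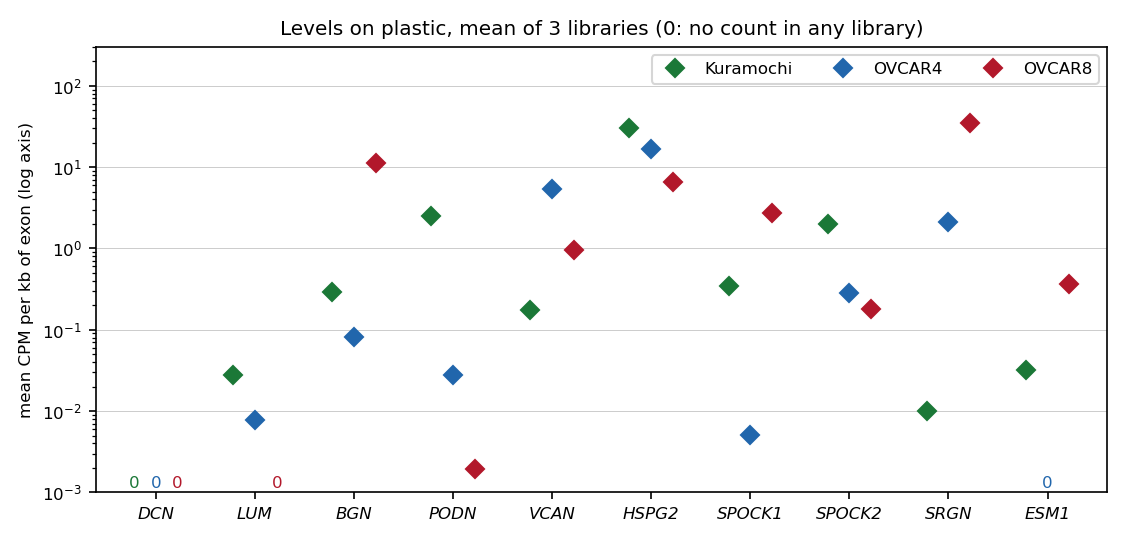
Mean level on plastic (CPM per kb of exon, log axis, 3 libraries a line) of each gene in Kuramochi (green), OVCAR4 (blue) and OVCAR8 (red), with 0 where no library held a count. HSPG2 leads in Kuramochi and OVCAR4 and SRGN in OVCAR8, while DCN is at 0 in all lines.

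HSPG2 encodes perlecan, which crosslinks laminins and collagen IV in basement membranes and binds growth factors through its heparan sulfate. On plastic its libraries read 831, 471 and 336 CPM in Kuramochi, 327, 234 and 336 CPM in OVCAR4, and 132, 97.6 and 126 CPM in OVCAR8. The OVCAR8 libraries lay below all others, and the lowest Kuramochi library was level with the highest of OVCAR4. OVCAR8 was lower than OVCAR4 by a log2 difference of -1.34 (SE 0.27, adjusted p = 0.000284) and lower than Kuramochi by -2.20 (SE 0.28, adjusted p = 1.63e-06). Kuramochi exceeded OVCAR4 by 0.87 (SE 0.27, adjusted p = 0.00952), a call that ended without Kuramochi plastic 2 (adjusted p = 0.116) or OVCAR4 plastic 4 (adjusted p = 0.0623).

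VCAN encodes versican, a large chondroitin sulfate proteoglycan that binds hyaluronan. It was at 100, 50.4 and 86.9 CPM in OVCAR4 on plastic, at 10.1, 20.7 and 11.3 CPM in OVCAR8 and at 1.29, 2.84 and 3.58 CPM in Kuramochi. The ranges of the lines did not meet. OVCAR4 lay above OVCAR8 (log2 difference of OVCAR8 minus OVCAR4 -2.50, SE 0.54, adjusted p = 0.000672), and OVCAR8 above Kuramochi (2.46, SE 0.58, adjusted p = 0.00151).

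The small leucine-rich genes were mostly low on plastic. DCN, decorin, which binds collagen I and TGF-beta, had no count in any of the 9 plastic libraries, which allows up to 0.0308, 0.0309 and 0.0302 CPM in Kuramochi, OVCAR4 and OVCAR8 at 3 counts over the group. LUM, lumican, a keratan sulfate proteoglycan that regulates collagen fibrils, had 6, 2 and 0 counts in all. BGN, biglycan, a relative of decorin, was at 24.9, 32.9 and 23.7 CPM in OVCAR8 against 0.498 to 0.923 CPM in Kuramochi and 0.179 to 0.219 CPM in OVCAR4. OVCAR8 exceeded Kuramochi in BGN by a log2 difference of 5.30 (SE 0.70, adjusted p = 5.73e-06), and Kuramochi minus OVCAR4 gave 1.78 (SE 1.01, adjusted p = 0.137). PODN, podocan, was in turn highest in Kuramochi, at 12.2, 11.1 and 13.6 CPM against at most 0.191 CPM in OVCAR4 and 1 count in the 3 OVCAR8 libraries (Kuramochi minus OVCAR4 6.48, SE 0.69, adjusted p = 4.35e-07).

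SPOCK1 and SPOCK2 encode testicans, secreted proteoglycans with a calcium-binding domain related to that of SPARC. SPOCK1 was at 17.8, 15.5 and 18.1 CPM in OVCAR8 on plastic, at 3.90, 1.10 and 1.51 CPM in Kuramochi, and had 3 counts over the OVCAR4 libraries. SPOCK2 ran the other way, with 12.7, 14.0 and 11.7 CPM in Kuramochi, 1.75 to 2.00 CPM in OVCAR4 and 1.05 to 1.33 CPM in OVCAR8. Neither gene's ranges met between lines. The smallest of these steps, SPOCK2 in OVCAR8 minus OVCAR4 (-0.65, SE 0.22, adjusted p = 0.0126), was lost without OVCAR8 plastic 4 (adjusted p = 0.0535).

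SRGN encodes serglycin, the proteoglycan of secretory granules in blood cells, and ESM1 encodes endocan, a dermatan sulfate proteoglycan named for its expression in endothelium. SRGN was at 43.9, 35.1 and 46.7 CPM in OVCAR8 on plastic and at 3.37, 2.27 and 2.09 CPM in OVCAR4, with 1 count in the 3 Kuramochi libraries. OVCAR8 exceeded OVCAR4 by a log2 difference of 4.02 (SE 0.31, adjusted p = 2.11e-09). The 7 leukocyte markers summed to at most 0.493 CPM in the same OVCAR8 libraries, with PTPRC, TYROBP, CD3E and MS4A1 at 0. ESM1 was at 0.757, 1.35 and 0.837 CPM in OVCAR8, had 8 counts in Kuramochi and none in OVCAR4. OVCAR8 exceeded Kuramochi in ESM1 by 3.50 (SE 0.58, adjusted p = 4.89e-05), and by 4.24 or 2.86 without Kuramochi plastic 2 or 4. Kuramochi passed over OVCAR4 in ESM1 at an adjusted p of 0.0193, which was 0.085 without Kuramochi plastic 2.

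The 250 bases before the RefSeq start of HSPG2 and of ESM1 (GRCh38.p14) are shown because HSPG2 was among the 3 highest of the 10 per kb in every line on plastic, and ESM1 was near the floor in Kuramochi and OVCAR4 but not in OVCAR8. HSPG2 lies on chromosome 1, minus strand, and the window is chr1:21937311-21937560. ESM1 lies on chromosome 5, minus strand, and the window is chr5:54985594-54985843, inside the longer span that GENCODE 44 gives the gene. The motifs searched on both strands were TATAAA (the TATA box), then GGGCGG (the GC box), then CATTCC (the TEAD site) and finally TGANTCA (the AP-1 site), and capitals mark the matches.
HSPG2: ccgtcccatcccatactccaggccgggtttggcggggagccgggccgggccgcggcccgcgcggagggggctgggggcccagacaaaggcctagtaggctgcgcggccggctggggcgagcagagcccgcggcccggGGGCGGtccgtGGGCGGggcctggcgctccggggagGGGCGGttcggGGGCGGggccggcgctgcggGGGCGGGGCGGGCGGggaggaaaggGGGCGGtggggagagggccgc
ESM1: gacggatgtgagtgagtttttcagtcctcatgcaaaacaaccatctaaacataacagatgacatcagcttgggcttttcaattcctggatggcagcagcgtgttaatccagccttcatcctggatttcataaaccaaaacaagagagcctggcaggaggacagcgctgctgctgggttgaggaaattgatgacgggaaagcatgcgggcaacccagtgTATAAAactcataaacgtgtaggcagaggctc

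The HSPG2 window held 8 GGGCGG matches, some of them overlapping, 33 CpG and 82.8% G+C. The ESM1 window held 1 TATAAA match, no GGGCGG, 6 CpG and 47.6% G+C. Of 27305 promoter windows of this length, 42.3% held GGGCGG and 11.1% TATAAA, and the median CpG count was 11. BGN, PODN and VCAN had 5, 2 and 1 GGGCGG matches and SPOCK2 had none. No window of these 6 genes held CATTCC or TGANTCA, which 11.9% and 6.60% of all windows did. The RefSeq table gave no entry for DCN, LUM, SPOCK1 and SRGN.

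Within each line, 3D was then compared with plastic. In Kuramochi 7 rose (DCN, LUM, BGN, PODN, VCAN, HSPG2 and SRGN) and SPOCK2 fell, 8 called of 10 against 27.3% of all genes tested (14.4% higher, 12.8% lower). In OVCAR4 5 rose (DCN, LUM, BGN, HSPG2 and SPOCK1) and none fell, against 27.1% (15.2% higher, 11.9% lower). In OVCAR8 4 rose (LUM, PODN, VCAN and ESM1) and none fell, against 10.8% (7.51% higher, 3.32% lower). DCN and LUM reached the minimum count in no plastic library, so the filter itself favoured their rise. Over the other 8 genes, 5 rose and 1 fell in Kuramochi, 3 rose in OVCAR4 and 3 rose in OVCAR8. The median log2 fold change of the 10 was 2.04, 1.97 and 1.67, and that of all genes 0.02, 0.04 and 0.02. With genes at 0 on plastic set to their lower bound and ESM1 left out in OVCAR4, where it had 1 count in all, the medians were 2.04, 2.10 and 1.67. Both sets of medians include DCN and LUM, whose rise the filter favoured, and medians without these genes were not taken. The 10 genes were also chosen with earlier results of these data known. The shares and medians of all genes are therefore no test of the 10. A lack of overlap between cultures, given for some genes below, was common over all genes tested. All 3D libraries lay above all plastic ones for 17.15%, 25.46% and 21.6% of them in Kuramochi, OVCAR4 and OVCAR8. They lay below for 15.5%, 20.62% and 19.83%. In these sorted but bulk samples, a change in the share of cells of a type cannot be told apart from a change in RNA per cell.

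These counts moved with single libraries. Without Kuramochi plastic 4 the count in Kuramochi was 4. Without any one of OVCAR4 plastic 42, 4 or 6 it was 3 in OVCAR4, and without OVCAR8 3D 61, 3D 62, plastic 4 or plastic 62 it was 2 in OVCAR8. The count in OVCAR8 was 6 without OVCAR4 3D 42. The replicate numbers of OVCAR4 were taken as pairs. Only 2 of its 6 libraries correlated best with their own number, against 4 of 6 in Kuramochi and in OVCAR8. The number was entered as a block in every line at once. With it 8 of the 10 rose in OVCAR4, PODN (adjusted p = 0.0119), VCAN (adjusted p = 0.0295) and SPOCK2 (adjusted p = 0.0406) in addition. The share of all genes called was not extracted for this block or for the fits without a library. The counts in this paragraph therefore have no background beside them.

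**Figure D2:**
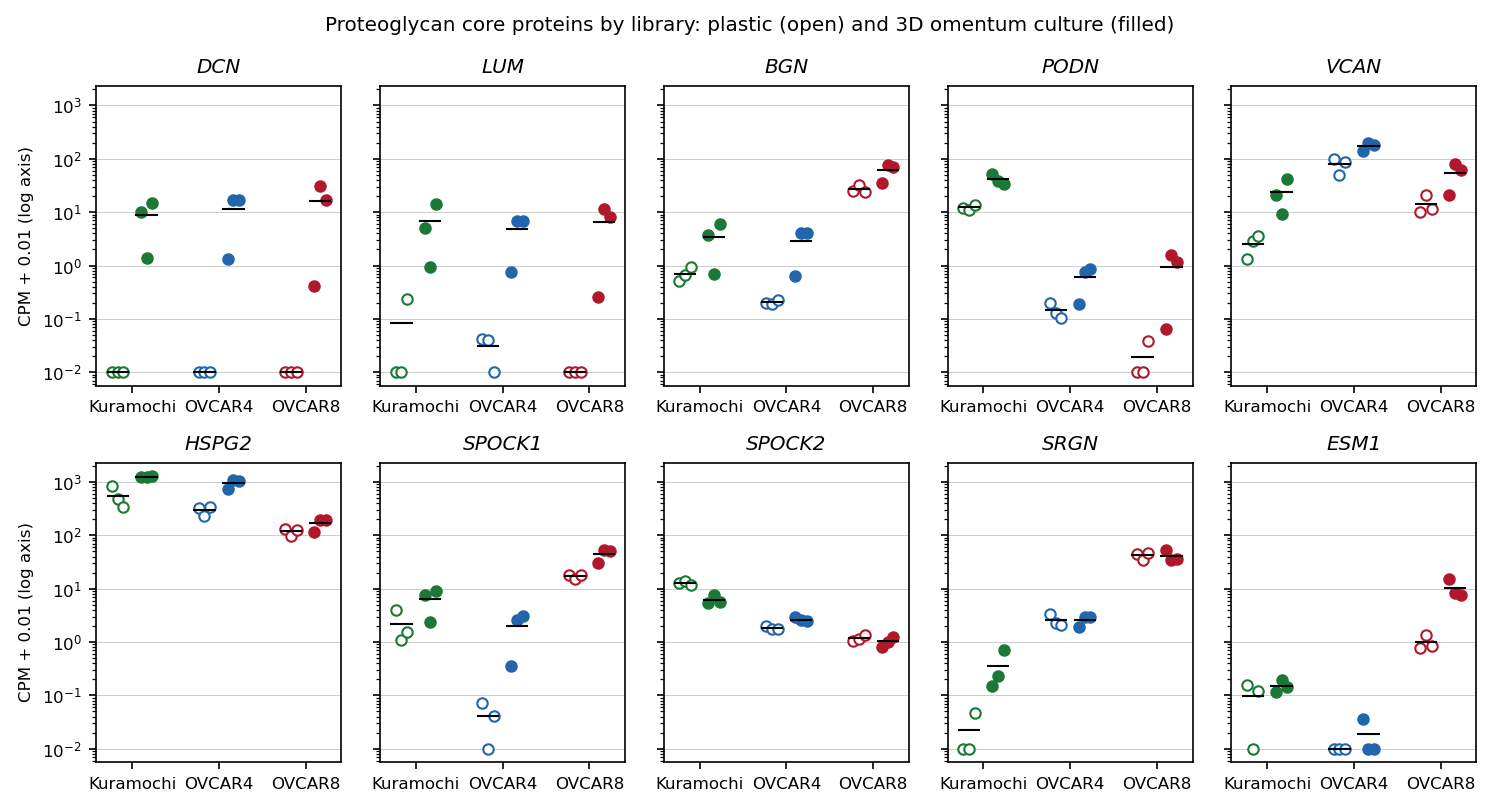
Level of each gene in each library (CPM + 0.01, log axis) on plastic (open) and in 3D (filled), with a bar at the mean of the 3 libraries. DCN has 0 counts in all 9 plastic libraries, and in each line 1 of the 3 libraries in 3D lies well below the other 2.

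DCN was detected in every 3D library. It read 9.996, 1.36 and 15.1 CPM in Kuramochi 3D 2, 4 and 8, 1.33, 16.7 and 16.7 CPM in OVCAR4 3D 42, 4 and 6, and 0.407, 30.8 and 16.8 CPM in OVCAR8 3D 4, 61 and 62. In each line a single library, Kuramochi 3D 4, OVCAR4 3D 42 or OVCAR8 3D 4, stood far below the other 2. With plastic at the floor of 3 counts over the group, the level in 3D was at least 280-fold higher in Kuramochi, at least 359-fold in OVCAR4 and at least 540-fold in OVCAR8. Leaving out 1 library at a time put these bounds at 175 to 409, 235 to 539 and 322 to 763. The calls were close to the threshold, with an adjusted p of 0.0398, 0.0334 and 0.0502. In Kuramochi the call for DCN ended (adjusted p 0.0511 to 0.136) without any one of 11 libraries, namely all 6 of Kuramochi, OVCAR4 3D 4, 3D 6, plastic 42 and plastic 4, and OVCAR8 3D 62. In OVCAR4 it ended (adjusted p 0.0504 to 0.116) without any one of 8, namely the 5 libraries of OVCAR4 other than 3D 42, Kuramochi 3D 2 and 3D 8, and OVCAR8 3D 62. In OVCAR8 the adjusted p was 0.00256 without OVCAR8 3D 4 and 0.0433 without OVCAR4 3D 42. DCN passed there under DESeq2 (2.24e-06) and RLE factors (0.048). With the closest libraries summed, the DCN calls in Kuramochi (0.0652) and OVCAR4 (0.0918) ended.

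LUM lay in the same libraries as DCN. Its levels in 3D were 5.05, 0.927 and 14.4 CPM in Kuramochi, 0.758, 6.79 and 6.90 CPM in OVCAR4, and 0.244, 11.3 and 8.04 CPM in OVCAR8. The low library of each line was the one low in DCN, and every 3D library lay above all plastic libraries of its line. The ratio of scaled counts in 3D to plastic was 108 (95% counting interval 49.4 to 296) in Kuramochi and 225 (62.0 to 1865) in OVCAR4, and at least 223 in OVCAR8 (adjusted p = 0.0126, 0.0145 and 0.0167). All 6 LUM counts on plastic in Kuramochi came from replicate 8, without which the ratio was at least 156. It was 46.7 without Kuramochi 3D 8, 70.3 without plastic 2 and 67.9 without plastic 4, and the OVCAR8 bound was 146 or 145 without OVCAR8 plastic 4 or 62. The calls for LUM ended without Kuramochi plastic 4 (adjusted p = 0.0817), without any plastic library of OVCAR4 (adjusted p 0.0519 to 0.0798), and without any OVCAR8 library but 3D 4 (adjusted p 0.0504 to 0.0702). With the closest libraries summed, the LUM calls in OVCAR4 (0.0518) and OVCAR8 (0.132) ended.

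BGN was higher in 3D in Kuramochi and OVCAR4. It read 3.74, 0.680 and 5.88 CPM in Kuramochi 3D 2, 4 and 8 against 0.498, 0.661 and 0.923 CPM on plastic, so that replicate 4 lay within the plastic range. In OVCAR4 it read 0.627, 4.14 and 4.03 CPM against 0.179 to 0.219 CPM, and in OVCAR8 34.6, 76.0 and 70.9 CPM against 23.7 to 32.9 CPM, with no overlap in either line. The log2 fold changes were 2.31 (SE 0.70, adjusted p = 0.0237), 3.87 (SE 0.86, adjusted p = 0.00508) and 1.16 (SE 0.54, adjusted p = 0.179). The Kuramochi call for BGN ended without Kuramochi 3D 2 (adjusted p = 0.0532), 3D 8 (0.127), plastic 2 (0.0719) or plastic 4 (0.105), and in separate fits of the lines (0.0523), in which BGN passed in OVCAR8 (0.0251). Without 3D 8 the log2 fold change was 1.67.

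PODN rose in the line that already made it and in the one with next to none. In Kuramochi it was at 53.0, 38.5 and 34.3 CPM in 3D, above all plastic libraries (11.1 to 13.6 CPM), with a log2 fold change of 1.77 (SE 0.46, adjusted p = 0.00998). Its lowest library here was replicate 8, the one highest in DCN. In OVCAR8 it was at 0.0543, 1.55 and 1.14 CPM in 3D 4, 61 and 62, from 1 count on plastic, a ratio of 93.8 (16.5 to 3738, adjusted p = 0.00428). That count came from OVCAR8 plastic 62, without which the ratio was at least 20.4, and without OVCAR8 plastic 4 it was 61.4. In OVCAR4 it was at 0.183, 0.733 and 0.863 CPM against 0.0937 to 0.191 CPM, where 3D 42 overlapped with plastic (log2 fold change 2.10, SE 0.84, adjusted p = 0.0741). The Kuramochi call for PODN ended without plastic 4 (adjusted p = 0.0549) and under DESeq2 (0.0687), and PODN passed in OVCAR4 without OVCAR4 3D 42 (0.0293) or OVCAR8 3D 4 (0.00832).

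VCAN was at 21.2, 9.30 and 41.0 CPM in Kuramochi 3D 2, 4 and 8, against 1.29 to 3.58 CPM on plastic. In OVCAR8 it was at 21.4, 78.9 and 62.7 CPM against 10.1 to 20.7 CPM, and in OVCAR4, where it was highest on plastic, at 139, 200.1 and 182 CPM against 50.4 to 100 CPM. No 3D library overlapped the plastic range, though OVCAR8 3D 4 was barely above it. The log2 fold changes were 3.23 (SE 0.59, adjusted p = 0.00167) in Kuramochi, 1.14 (SE 0.51, adjusted p = 0.109) in OVCAR4 and 1.96 (SE 0.53, adjusted p = 0.0282) in OVCAR8. Without Kuramochi 3D 8 the value in Kuramochi was 2.58. The OVCAR8 call for VCAN ended without 3D 61 (adjusted p = 0.146), 3D 62 (0.105), plastic 4 (0.125) or plastic 62 (0.122), and with the closest libraries summed (0.362), while VCAN passed in OVCAR4 in separate fits of the lines (0.0124).

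HSPG2 rose in the same way in all 3 Kuramochi libraries. They read 1243, 1226 and 1285 CPM in 3D against 831, 471 and 336 CPM on plastic, a log2 fold change of 1.20 (SE 0.27, adjusted p = 0.00433). In OVCAR4 the 3D libraries were at 727, 1104 and 1054 CPM against 234 to 336 CPM (1.68, SE 0.27, adjusted p = 0.000791). The spread over Kuramochi libraries was narrow in 3D and wide on plastic, and neither line's groups overlapped. In OVCAR8 replicate 4 was at 115 CPM, within the plastic range of 97.6 to 132 CPM, and 61 and 62 were above it at 195 and 193 CPM (0.50, SE 0.27, adjusted p = 0.242). No left-out library ended the HSPG2 calls in Kuramochi or OVCAR4.

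**Figure D3:**
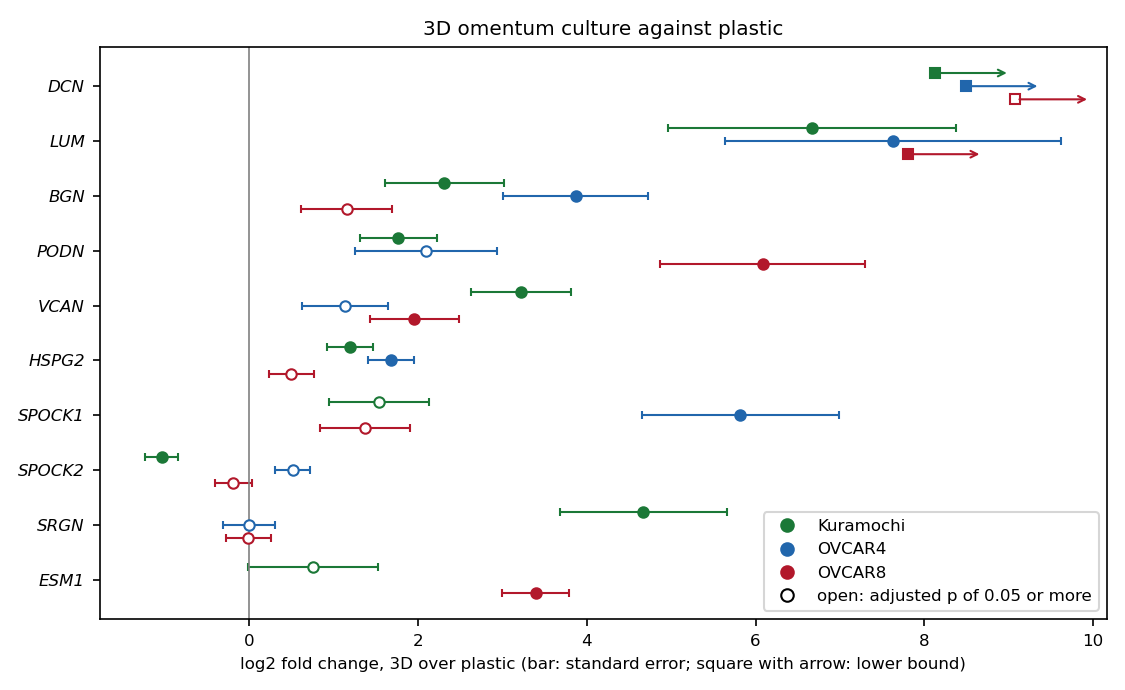
Log2 fold change of 3D over plastic for each gene in Kuramochi (green), OVCAR4 (blue) and OVCAR8 (red), with its standard error. Filled symbols passed an adjusted p of 0.05, squares with arrows are lower bounds for genes at 0 on plastic, and ESM1 in OVCAR4 is left out. DCN and LUM lie farthest to the right and SPOCK2 in Kuramochi is the filled point left of 0.

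The testicans moved differently from each other. SPOCK1 rose in OVCAR4 from 3 counts to 0.340, 2.55 and 3.01 CPM in 3D 42, 4 and 6, a ratio of 61.6 (20.8 to 301, adjusted p = 0.00312), which was 125 without OVCAR4 plastic 42, holder of 2 of the 3 counts, and 40.3 without OVCAR4 plastic 4. In OVCAR8 SPOCK1 was at 30.3, 52.8 and 50.1 CPM against 15.5 to 18.1 CPM with no overlap (log2 fold change 1.37, SE 0.54, adjusted p = 0.111). In Kuramochi it was at 7.47, 2.35 and 9.22 CPM against 1.10 to 3.90 CPM, where replicate 4 overlapped (1.54, SE 0.59, adjusted p = 0.064). SPOCK1 passed in Kuramochi without Kuramochi 3D 4 (adjusted p = 0.0252), Kuramochi plastic 2 (0.0174) or OVCAR4 3D 42 (0.0211), and in OVCAR8 without OVCAR4 3D 42 (0.0422) or in separate fits of the lines (0.00273).

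SPOCK2 fell in Kuramochi, the line with the highest level. Its 3D libraries were at 5.33, 7.72 and 5.65 CPM against 12.7, 14.0 and 11.7 CPM on plastic, a log2 fold change of -1.04 (SE 0.19, adjusted p = 0.00136) with no overlap. In OVCAR4 its 3D libraries lay above those on plastic, at 2.88, 2.55 and 2.45 against 2.00, 1.76 and 1.75 CPM (0.52, SE 0.21, adjusted p = 0.0723). In OVCAR8 they were at 0.814, 0.981 and 1.26 CPM against 1.05, 1.12 and 1.33 CPM (-0.18, SE 0.22, adjusted p = 0.635). The response to 3D differed between the lines for SPOCK2 (adjusted p = 0.00761 for any difference), and OVCAR4 minus Kuramochi was 1.55 (SE 0.28, adjusted p = 0.0123). No left-out library ended these SPOCK2 calls, but with the closest libraries summed the response differences did not pass (adjusted p = 0.053 for any difference and 0.066 for OVCAR4 minus Kuramochi).

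SRGN rose in Kuramochi from almost nothing. Its counts there were 4, 7 and 21 in 3D 2, 4 and 8 (0.138, 0.216 and 0.702 CPM) against 0, 0 and 1 on plastic, a ratio of 34.2 (5.72 to 1393, adjusted p = 0.00289). The ratio was 17.5 without 3D 8, 22.2 and 21.5 without plastic 2 and 4, and at least 8.24 without plastic 8. In the lines that expressed SRGN the groups overlapped. It was at 1.93, 2.93 and 2.89 CPM in OVCAR4 3D against 2.09 to 3.37 CPM, and at 54.0, 34.7 and 36.2 CPM in OVCAR8 3D against 35.1 to 46.7 CPM. The counts in 3D over plastic had a ratio of 0.997 (0.836 to 1.19) in OVCAR4 and 0.973 (0.934 to 1.01) in OVCAR8 by counting error alone. Both lines differed from Kuramochi in the SRGN response, OVCAR4 by -4.67 (SE 1.07, adjusted p = 0.0451) and OVCAR8 by -4.68 (SE 1.05, adjusted p = 0.0135). These were -3.71 and -3.73 without Kuramochi 3D 8 and -6.62 and -6.57 without Kuramochi plastic 8. The OVCAR8 difference was lost without Kuramochi 3D 8 (adjusted p = 0.0574) or plastic 4 (0.0627), and the OVCAR4 difference without any one of 15 of the 18 libraries (adjusted p 0.0522 to 0.151), the exceptions being Kuramochi 3D 2, Kuramochi 3D 4 and OVCAR8 3D 4. With the closest libraries summed neither SRGN difference passed (adjusted p = 0.133 for OVCAR4 and 0.0745 for OVCAR8), nor did that of OVCAR4 in separate fits (0.0913). Leukocyte markers in Kuramochi summed to 1.54 to 3.94 CPM in 3D and 0.554 to 0.854 CPM on plastic, with CD3E and MS4A1 at 0 in both. Most of that was CD14, with 212 counts in 3D and 53 on plastic, while PTPRC had 10 and 11 and LYZ 5 and 5. Their part in the SRGN result was not tested.

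ESM1 rose in OVCAR8. Its libraries were at 15.01, 8.21 and 7.77 CPM in 3D 4, 61 and 62 against 0.757 to 1.35 CPM on plastic, a log2 fold change of 3.40 (SE 0.40, adjusted p = 4.48e-05). The highest of them was replicate 4, the library with the least DCN of all 9, and without it the log2 fold change was 3.03 (adjusted p = 7.93e-05). In Kuramochi ESM1 had 13 counts in 3D and 8 on plastic (adjusted p = 0.495). The difference between OVCAR8 and Kuramochi in this response was 2.64 (SE 0.94, adjusted p = 0.108), so it was not shown to differ. It passed without Kuramochi plastic 4 (adjusted p = 0.0377) and under DESeq2 (0.0222). It also passed with no filter (0.0151), a setting that added 28 calls among 100 recomputed values and removed 0. Of 6 endothelial markers CLDN5 had no count in any OVCAR8 library and CDH5 had 4 in 3D and 11 on plastic. Their sum was 4.99 to 8.26 CPM in 3D and 2.07 to 2.57 CPM on plastic in OVCAR8 and was mostly TIE1 in 3D (4.07 to 6.12 CPM), and its part in the ESM1 result was not tested.

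Across all 10 genes the test of any difference in response between lines called SPOCK2 and SRGN, 2 of 10 against 6.17% of all genes. The pairwise tests called 2 for OVCAR4 minus Kuramochi (SPOCK2 higher, SRGN lower), beside 0.799% of all genes (0.445% higher, 0.354% lower). For OVCAR8 minus Kuramochi they called SRGN, lower, beside 5.71% (2.99% higher, 2.72% lower). For OVCAR8 minus OVCAR4 edgeR called 0, beside 4.04% (2.09% higher, 1.94% lower). There 4 genes, HSPG2, SPOCK1, BGN and SPOCK2, had an unadjusted p of 0.00602, 0.00687, 0.02 and 0.0337, and DESeq2 called 2, HSPG2 and SPOCK1. The DCN responses could not be compared, since DCN was at 0 on plastic in every line. For PODN the response in OVCAR8 minus that in Kuramochi was 4.31 (SE 1.53, adjusted p = 0.105), which did not pass. It passed without OVCAR8 3D 4 (adjusted p = 0.00465), under DESeq2 (0.0394) and with the replicate block (0.0181). It also passed with no filter (3.23e-07). That setting added 28 calls among 100 recomputed values and removed 0, so its pass is weak support.

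The genes differed in how far they followed DCN over the 3D libraries of a line. Relative to the highest 3D library of its line, DCN was at 9.02% in Kuramochi 3D 4, LUM at 6.44% and BGN at 11.6%, while HSPG2 was at 95.4% and PODN at 72.7%. In OVCAR4 3D 42 DCN was at 8.00%, LUM at 11.0%, SPOCK1 at 11.3% and BGN at 15.1%, against 65.8% for HSPG2 and 69.6% for VCAN. In OVCAR8 3D 4 DCN was at 1.32%, LUM at 2.16% and PODN at 3.50%, against 57.4% for SPOCK1 and 58.8% for HSPG2, and ESM1 and SRGN were highest there. HSPG2 in Kuramochi was also lowest in 3D 4, but by far less than DCN. Of the other 9 genes, 5 in Kuramochi, 4 in OVCAR4 and 6 in OVCAR8 had the order of DCN over the 3 libraries, as did 10.6%, 18.1% and 24.6% of all genes tested. In OVCAR4 this order rests on a near tie, since DCN was at 16.67 CPM in both 3D 4 and 3D 6. The OVCAR4 count and share therefore do not show which genes follow DCN, and LUM was not among the 4.

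**Figure D4:**
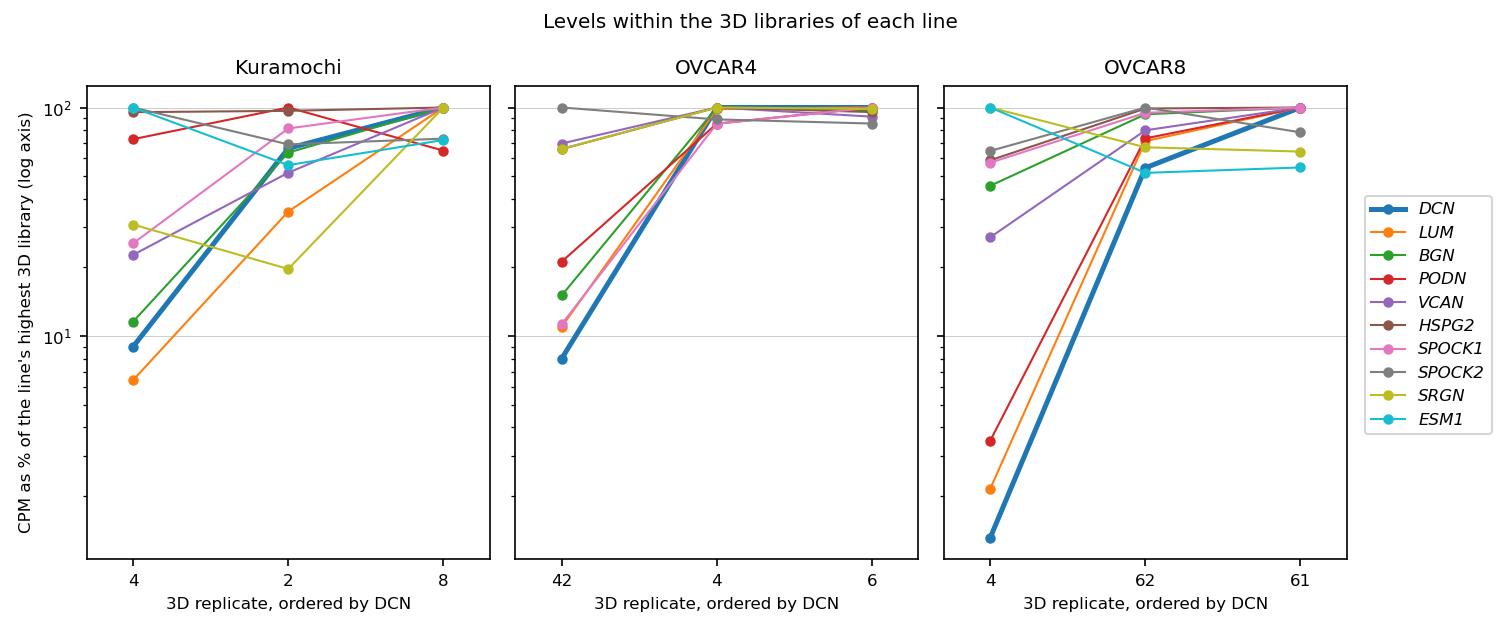
Level of each gene in each 3D library as a percentage of the line's highest 3D library (log axis), with the libraries ordered by DCN (thick line). DCN and LUM drop to 1.32 to 11.0% in Kuramochi 4, OVCAR4 42 and OVCAR8 4, whereas HSPG2 is at 95.4% in Kuramochi 4 and ESM1 is highest in OVCAR8 4. ESM1 in OVCAR4 is left out.

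While DCN ranged 75.7-fold over the 9 libraries in 3D, from 0.407 to 30.8 CPM, the ratio of some genes to it ranged less over the same libraries. LUM was at 0.366 to 0.956 CPM per CPM of DCN, FAP at 0.208 to 0.682 and PDGFRA, another fibroblast marker, at 0.169 to 2.48, a 14.7-fold range. COL1A2, a chain of collagen I, was at 18 to 28.1, and was chosen after its values were seen. FAP and PDGFRA were the only ones of the 8 fibroblast markers set against DCN. With DDR2 they rose in every line, which PDGFRB, THY1, PRRX1, TWIST2 and TCF21 did not. The ratio of HSPG2 to DCN ranged 142-fold and that of BGN 351-fold over the 9 libraries. Within lines BGN was at 0.374 to 0.5 CPM per CPM of DCN in Kuramochi and 0.242 to 0.471 in OVCAR4. It was at 2.47 to 84.9 in OVCAR8, where its mean on plastic was already 27.1 CPM. These are descriptions over 9 libraries, which share depth and sorting with all other genes. The summed fibroblast markers were at 9.12 to 20.2 CPM in OVCAR4 3D against 1.13 to 1.78 CPM on plastic, and at 36.6 to 85.7 against 35.7 to 42.6 CPM in OVCAR8. In Kuramochi they were at 86.2 to 267 CPM against 145 to 309 CPM, so that the groups overlapped. Most of both Kuramochi sums was THY1, at 76.1 to 251 CPM in 3D and 143 to 307 CPM on plastic. These sums therefore do not show how the other markers moved. Most of the OVCAR8 sum on plastic was PDGFRB, at 25.26 to 31.15 CPM. PRRX1 was at 0 on plastic in Kuramochi, PRRX1, TWIST2 and TCF21 in OVCAR4, and FAP in OVCAR8, whereas each of the 8 had counts in at least 1 library of every 3D group. Expression by the cancer cells and RNA of omental cells left after the sort cannot be told apart in these counts.

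The genes whose 6 group means lay closest to those of each gene, after centring log2 CPM, were POSTN and THBS2 for DCN (root mean square difference 0.35 and 0.54) and FAP and VCAM1 for LUM (0.29 and 0.46). For BGN they were CCDC144A and SLITRK4 (0.33 and 0.34), for VCAN TENM1 and MILR1 (0.34 and 0.42), for PODN LRRC32 and TSHZ2 (0.48 and 0.65), and for ESM1 ADAMTS6 and ANPEP (0.74 and 0.84). HSPG2 was closest to ATF3 and KLHL24 (0.19 and 0.23), but 3284 genes lay within 1 log2 unit of it, against 3 for DCN and 5 for LUM. Likewise SPOCK1 was closest to CLMP and CELF2 (0.69 and 0.77), SRGN to DSC3 and OSBPL6 (0.60 and 0.77) and SPOCK2 to TCF7L1 (0.25).

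Counts of the companion lists below stand beside 27.3%, 27.1% and 10.8% of all genes called in Kuramochi, OVCAR4 and OVCAR8, and nothing particular to a list is read from them. Of 27 further secreted ones 14 were tested, and 3 rose and 2 fell in Kuramochi, 2 rose and 1 fell in OVCAR4, and 3 rose in OVCAR8, with median log2 fold changes of 0.36, 0.26 and 0.22. PRG4, lubricin, a lubricating mucin-like proteoglycan of joint and peritoneal surfaces, went in Kuramochi from no count on plastic to 2.69 ± 1.80 CPM (SD, n = 3; adjusted p = 0.0007). FMOD, fibromodulin, a relative of lumican, went in OVCAR4 from 0.0212 to 3.77 ± 2.53 CPM (SD, n = 3; adjusted p = 0.00341). AGRN, agrin, the other large heparan sulfate proteoglycan of basement membranes, rose in OVCAR8 from 215 ± 22.8 to 449 ± 60.3 CPM (SD, n = 3; log2 fold change 1.06, SE 0.19, adjusted p = 0.00149), a line in which HSPG2 did not pass.

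Of 16 membrane proteoglycans 15 were tested, and 3 rose and 5 fell in Kuramochi, 6 rose and 2 fell in OVCAR4, and 3 rose and 1 fell in OVCAR8. Among the syndecans, transmembrane heparan sulfate proteoglycans, SDC1 fell from 68.4 to 37.3 CPM in Kuramochi (-0.87, SE 0.13, adjusted p = 0.000251) and from 156 to 93.4 CPM in OVCAR4 (-0.74, SE 0.13, adjusted p = 0.00111). SDC2 fell in OVCAR8 from 126 to 68.0 CPM (-0.89, SE 0.14, adjusted p = 0.000409), and SDC4 rose in OVCAR4 from 236 to 448 CPM (0.92, SE 0.19, adjusted p = 0.00272). NRP1, neuropilin, a semaphorin and VEGF co-receptor that can carry a glycosaminoglycan, rose in Kuramochi from 16.5 to 123 CPM (2.90, SE 0.41, adjusted p = 0.000251).

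Of the enzymes that build the chains, 2, 3 and 1 of 9 linker and xylosylation genes rose in Kuramochi, OVCAR4 and OVCAR8 and none fell. Of 16 chondroitin and dermatan sulfate enzymes 6, 5 and 1 rose and 0, 1 and 2 fell. CHST11, a chondroitin 4-O-sulfotransferase, rose in all 3 lines, from 4.84 to 16.9 CPM in Kuramochi, 6.46 to 16.3 in OVCAR4 and 10.7 to 18.8 in OVCAR8 (log2 fold changes 1.81, 1.33 and 0.81, adjusted p = 3.56e-05, 0.000558 and 0.016). CHST15, which adds a further sulfate to chondroitin sulfate A, rose in Kuramochi from 21.2 to 88.5 CPM (2.06, SE 0.16, adjusted p = 5.04e-07), and its response differed between lines (adjusted p = 4.76e-05). DSE, an epimerase that turns chondroitin into dermatan sulfate, rose in OVCAR4 from 2.31 to 8.71 CPM (1.91, SE 0.25, adjusted p = 0.000174).

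Of 18 heparan sulfate enzymes tested out of 21, 6, 7 and 2 rose and 2, 2 and 1 fell. HS6ST1, a heparan sulfate 6-O-sulfotransferase, fell in all 3 lines with no overlap, from 296 to 135 CPM in Kuramochi, 95.5 to 46.1 in OVCAR4 and 54.0 to 33.0 in OVCAR8 (log2 fold changes -1.13, -1.05 and -0.71, adjusted p = 5.2e-06, 2.85e-05 and 0.000456). SULF1, which removes 6-O-sulfates outside the cell, rose in OVCAR8 from 0.113 ± 0.0729 to 25.5 ± 22.9 CPM (SD, n = 3; adjusted p = 0.00511), with 0.678 CPM in its lowest 3D library. Of 9 proteases of these core proteins that were tested, 2 rose in Kuramochi, 4 rose and 2 fell in OVCAR4, and 0 were called in OVCAR8 by edgeR (3 at an unadjusted p under 0.05; the DESeq2 values of these lists were not extracted), where ADAMTS4 and BMP1 came nearest (adjusted p = 0.0568 and 0.0681). ADAMTS9, a versican-cleaving protease, rose in Kuramochi from 20.8 to 44.7 CPM (1.10, SE 0.27, adjusted p = 0.00671) and in OVCAR4 from 0.842 to 7.72 CPM (3.20, SE 0.33, adjusted p = 2.85e-05).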

How the data were processed

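RNA-seq libraries of 3 ovarian cancer lines in 3D and on plastic were analysed. The authors deposited unscaled counts of reads per gene. Per the study's methods and processing notes, they trimmed reads with Trimmomatic 0.33 and aligned them with TopHat2 2.1.0 to GRCh38 with GENCODE 25 before counting with HTSeq. No strand setting for HTSeq is given in the sources used here, and genes overlapping on opposite strands may share reads. GENCODE 44 supplied names for 57532 of the identifiers.

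All 18 libraries entered a single model of 6 groups in edgeR 4.0.16 (limma 3.58.1, R 4.3.3) with TMM factors, filterByExpr (minimum count 10, total 15), quasi-likelihood F-tests and Benjamini-Hochberg adjustment over all genes of a contrast. Calls had an adjusted p under 0.05, and fold changes are on the log2 scale. Intervals beside a ratio of summed counts are exact (95%) and, like the floors of 3 counts, cover counting error only. Levels per kb use the union of annotated exons.

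The genes and companion lists were chosen with earlier results of these data known. All 10 genes were named throughout. In each companion list the rule allowed naming the gene with the smallest p that rose and that fell in a line, at 1 CPM or more in either group, and genes called in the same direction in all 3 lines. For similarity it allowed the 2 nearest genes to each of the 10. COL1A2, ADAMTS4 and BMP1 were named outside the rule, after their values were seen. Same-numbered 3D and plastic libraries had deviations from their group means correlated at 0.107 to 0.395 in OVCAR4, 0.0899 to 0.42 in Kuramochi and -0.171 to 0.248 in OVCAR8. Only the OVCAR4 numbers, all above 0.1, were therefore taken as pairs, and this pairing comes from the data. The replicate block was nevertheless fitted in every line at once. The labels do not give it. OVCAR4 3D 4 correlated more with plastic 6 (0.276), and 3D 6 more with plastic 4 (0.26), than with their own numbers. Other settings tried were DESeq2 1.42.0, size factors by RLE, leaving genes unfiltered, fitting lines separately, a replicate block, a 2-fold minimum, summing the closest libraries and leaving out each library. The fits were tested on simulated data. Promoter sequences are from RefSeq, GRCh38.p14.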

Additional observations from a re-analysis of the deposited data

Results flagged for a closer look

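The response to 3D differed between the lines for 2 of the genes. For SPOCK2, which fell in Kuramochi, the test of any difference gave an adjusted p of 0.00761, and OVCAR4 minus Kuramochi was 1.55 on the log2 scale; with the closest libraries summed these gave an adjusted p of 0.053 and 0.066 for SPOCK2. For SRGN, whose rise in Kuramochi rested on 32 counts in 3D and 1 on plastic, the test of any difference gave an adjusted p of 0.0254, with -4.67 for OVCAR4 minus Kuramochi and -4.68 for OVCAR8 minus Kuramochi. The SRGN call for any difference ended without Kuramochi 3D 8 (adjusted p = 0.0945), plastic 2 (0.0561) or plastic 4 (0.0881), and with the closest libraries summed (0.106).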

How the results depend on the processing

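Of 2352 values of single genes recomputed under the other settings, 2202 kept their side of the threshold, 56 of them uncalled values that changed sign, 74 lost the call, 76 gained it and 0 called values reversed. A 2-fold minimum was applied to the counts alone, which it left at 8, 5 and 4 for 3D against plastic and took from 7, 7 and 8 to 6, 6 and 8 between lines on plastic. Counts of genes called below are out of 10. The shares of all genes called under these settings, the replicate block included, were not extracted. The counts therefore have no background beside them. Leaving genes unfiltered only added calls, with 28 of 100 values of single genes gaining the call and 0 losing it. For 3D against plastic, the count went in OVCAR4 from 5 to 3 with close libraries summed. In OVCAR8 it went from 4 to 8 with no filter on low counts and to 2 with close libraries summed. For any difference in response it went from 2 to 4 with DESeq2, 8 with no filter and 0 with close libraries summed. For OVCAR4 minus Kuramochi it went from 2 to 5 with no filter, 1 with separate fits and 0 with close libraries summed. For OVCAR8 minus Kuramochi it went from 1 to 4 with DESeq2, 5 with no filter and 0 with close libraries summed. For OVCAR8 minus OVCAR4 it went from 0 to 2 with DESeq2, 5 with no filter and 1 with separate fits. Leaving out each library in turn gave counts of 4 to 9 in Kuramochi, 3 to 6 in OVCAR4 and 2 to 6 in OVCAR8, and of 5 to 7, 6 to 8 and 8 to 8 between lines on plastic. It gave 1 to 3 for any difference in response, 1 to 2 for OVCAR4 minus Kuramochi, 0 to 2 for OVCAR8 minus Kuramochi and 0 to 2 for OVCAR8 minus OVCAR4. The cause of these shifts was not tested.

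With the replicate number as a block, the count was 9 in Kuramochi, 8 in OVCAR4 and 7 in OVCAR8, and 4 for any difference in response, 2 for OVCAR8 minus Kuramochi and 2 for OVCAR8 minus OVCAR4. By their labels, samples of every line share only a number. In Kuramochi and in OVCAR8, 4 of the 6 libraries correlated best with their own number, and 2 of 6 did so in OVCAR4. Depth limits DCN, LUM, SPOCK1, SRGN, PODN and ESM1 in the lines that held 0 to 13 counts on plastic.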
